A study of Mus musculus with 24 samples.

Results

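Wounds of diabetic mice that had been given a hydrogel were compared with diabetic wounds without it at day 14, as 3 libraries against 3, chosen by their labelled treatment and day from the 24 libraries of the study. The hydrogel wounds carried the treatment label Fmoc-KYF-AgNCs-3S1C-Hyd2 hydrogel, which the study's title describes as a peptide gel with silver nanoclusters and an oxygen-tolerant hydrogenase, meant to give hydrogen when lit. The control wounds were labelled as diabetic controls, and both groups came from wound tissue collected on day 14. Strain, sex, age, the way diabetes was induced, the number of animals and the type of dressing on the controls are not stated in the labels used here, and nothing there says that libraries of a group came from separate animals, so p-values reflect the scatter among libraries alone, and that scatter could be technical. The hydrogel libraries have the prefix TEOA in their titles, whose meaning they do not give. The other wound libraries, 6 from day 1 and 6 from day 7, served to estimate the spread between replicates and to set day 14 beside the earlier days.

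A skin wound passes from inflammation, led by neutrophils and then macrophages, to the filling of the gap with collagen-rich granulation tissue and new vessels, and at last to remodelling. Keratinocytes close the surface meanwhile, and in mice the follicles around a wound can enter a growth phase in which matrix cells divide and build a hair shaft from specialised keratins. In diabetic mice closure is slow and macrophages and inflammatory cytokines persist, which is why late time points are of interest.

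The values are counts of read pairs per gene. The libraries, called hydrogel 1 to 3 and control 1 to 3 below by their replicate numbers, held 19963708, 24731851 and 22155278 counted pairs in hydrogel wounds, against 17433837, 18380057 and 17460974 in control wounds. Levels are given as CPM, counts scaled by library size and by its TMM normalisation factor. Comparisons are hydrogel over control on the log2 scale, from edgeR's quasi-likelihood fit to all 18 wound libraries. The ± is an approximate standard error, the size of the log2 fold change divided by the square root of its F statistic. The threshold was an adjusted p of 0.05 (Benjamini-Hochberg, over 17592 tested genes), and genes beyond it are said to rise or fall. Between genes, CPM are not comparable as levels, since longer genes gather more counts.

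The replicates were unlike in both groups, in different ways. Control 1 stood apart, at 171.9 on the first principal component (76.3% of the variance) where the other 5 libraries lay between -77.3 and 29.5. The hydrogel libraries were close to each other, and gene by gene hydrogel 2 lay between hydrogel 1 and 3. It was the middle library for 71.9% of 13536 genes, against 51.6% of 13282 genes for control 2. A weighted mean of hydrogel 1 and 3, with weight 0.438 on hydrogel 1, gave the counts of hydrogel 2 nearly to counting error, with a median chi-square of 0.566 per gene where counting error alone gives 0.455. For the best such mean in the control group the median chi-square was 9.27. Among the 350 genes that differed at least 2-fold between hydrogel 1 and 3, the weight on hydrogel 1 had a median of 0.432 and a middle range of 0.394 to 0.473. Whether hydrogel 2 shares material with hydrogel 1 and 3 was not tested. Skin and muscle were both sampled, since genes of basal keratinocytes summed to 6400.5 to 6951 CPM in hydrogel wounds, against 746 to 6506 CPM in control wounds, and genes of skeletal muscle, described further on, were abundant as well. Counts over all genes are given with and without hydrogel 2, and with and without control 1. For gene lists such counts are given where leaving out 1 library moved them more strongly, and not for every list.

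At day 14, 1025 genes rose and 1811 fell, so that 16.1% of all genes tested passed (5.83% higher and 10.3% lower). Counts of list members below are to be read against these shares. The median log2 fold change over all genes was 0.03. Without hydrogel 2, 302 genes rose and 720 fell. Without control 1, 417 rose and 847 fell. A fit to the 6 day 14 libraries alone called 67 higher and 366 lower, and a fit to days 1 and 14 called 118 higher and 499 lower. Both leave fewer degrees of freedom and both leave out day 7. The fit to all 18 libraries shares a spread per gene over all days, and day 7 replicates were closer to each other than day 14 control replicates. How far the calls rest on that shared spread was not tested. Without hydrogel 3 the counts were 203 and 603, and without hydrogel 1 they were 724 and 1152. In the fit without control 3, 1931 rose and 2391 fell. In all 6 fits that left out 1 library, 190 of the higher and 574 of the lower genes passed, 4.34% of all genes together and 3.26% for the lower side. The groups did not overlap in CPM for 43.7% of the genes, with hydrogel higher in 23.8% and lower in 20% of all genes. The plot of called genes by processing gives these counts for each setting.

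**Figure D1:**
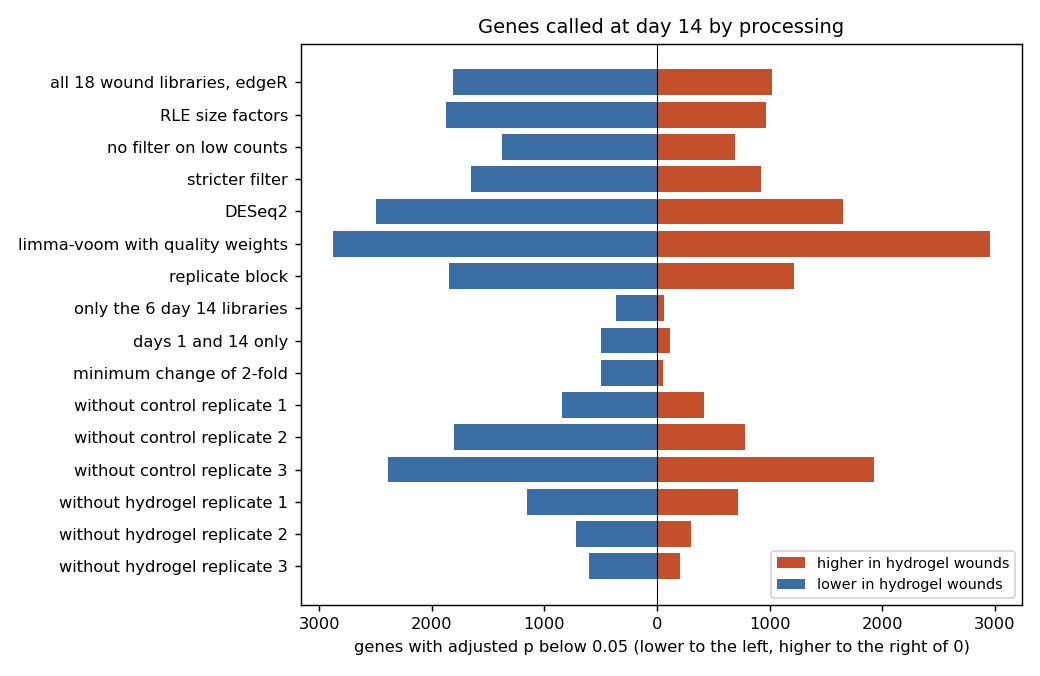
Genes with an adjusted p below 0.05 at day 14 under each processing, with the number of genes higher in hydrogel wounds to the right of 0 and lower to the left. With only the 6 day 14 libraries the bars shrink to 67 higher and 366 lower genes, and they are longest with limma-voom and quality weights, at 2955 higher and 2873 lower.

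Genes of the hair shaft led the higher side. Of the 23 tested genes for hair shaft and root sheath keratins and their regulators, 13 rose and 10 did not pass, with a median log2 fold change of 2.99 (2.41 to 4.35 with 1 library left out), and in 22 of the 23 all hydrogel libraries lay above all control libraries. Type I hair keratins pair with type II hair keratins into the filaments of the hair cortex, and keratin-associated proteins cross-link them. Their promoter regions are shown for 3 neighbouring type I genes, since these genes moved together, as the 250 bases before the RefSeq transcription start (GRCm38.p6, minus strand), with capitals at the letters TATAAA, a core promoter motif, and at CTTTGA and CTTTGT, the letters bound by LEF/TCF factors, on either strand.
Krt31 (chr11:100050552-100050801): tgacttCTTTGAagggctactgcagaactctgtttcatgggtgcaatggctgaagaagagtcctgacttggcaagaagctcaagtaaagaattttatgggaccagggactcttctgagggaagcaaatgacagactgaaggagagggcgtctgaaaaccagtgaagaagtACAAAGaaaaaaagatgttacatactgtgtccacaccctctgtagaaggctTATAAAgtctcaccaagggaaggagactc
Krt33b (chr11:100029869-100030118): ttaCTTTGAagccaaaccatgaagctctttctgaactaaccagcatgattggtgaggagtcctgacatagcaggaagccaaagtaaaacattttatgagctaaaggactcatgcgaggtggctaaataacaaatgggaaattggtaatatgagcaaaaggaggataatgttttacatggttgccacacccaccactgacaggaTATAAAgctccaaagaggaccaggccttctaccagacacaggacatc
Krt34 (chr11:100041555-100041804): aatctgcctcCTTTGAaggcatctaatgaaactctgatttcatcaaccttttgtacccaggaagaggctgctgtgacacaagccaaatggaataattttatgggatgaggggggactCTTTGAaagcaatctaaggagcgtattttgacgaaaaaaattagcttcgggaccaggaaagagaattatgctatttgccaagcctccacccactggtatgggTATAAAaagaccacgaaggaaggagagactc
TATAAA began 29, 47 and 31 bases before the start in Krt31, Krt33b and Krt34, and CTTTGA stood 244, 247 and 240 bases before it. CTTTGA also stood 133 bases before the start in Krt34, and CTTTGT on the other strand 80 bases before it in Krt31. Of all 32817 RefSeq windows of this length, 12.4% held TATAAA, 13.8% CTTTGA and 16.5% CTTTGT. A match describes the letters and not a bound site. Promoters of the other hair keratins were not examined singly, so these shares test no enrichment. Windows were found for 127 of the 174 genes named by rule.

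Krt31 (chromosome 11, 100046646 to 100050551, minus strand, mm10) had 12.9, 142 and 229 CPM in hydrogel wounds, against 0, 0.856 and 2.34 CPM in control wounds. Krt31 changed by 6.87 ± 1.10 on the log2 scale (adjusted p = 0.00187), and by 8.09 without control 3 and 6.15 without hydrogel 3. Krt83, a type II hair keratin, had 9.47, 118 and 199.7 CPM in hydrogel wounds, against 0, 1.16 and 1.24 CPM in control wounds. Krt83 changed by 7.04 ± 1.22 on the log2 scale (adjusted p = 0.0028), and by 6.27 without hydrogel 3. Krt33a had 5.605, 84.4 and 141 CPM in hydrogel wounds, against 0.058, 0.0428 and 1.37 CPM in control wounds. Krt33a changed by 7.24 ± 1.28 on the log2 scale (adjusted p = 0.00358), and by 10.42 without control 3 and 6.47 without hydrogel 3. Every hydrogel library exceeded every control library for these genes, the control libraries held few or no counts, and hydrogel 1 lay far below hydrogel 2 and 3. Smaller levels gave the same order for Krt81 (1.46, 19.5 and 31.3 CPM against 0, 0.128 and 0.229 CPM, log2 fold change 7.04 ± 1.28), Krt33b (1.303, 25.02 and 41.7 CPM against 0, 0.0428 and 0.504 CPM, 6.86 ± 1.30) and Krt34 (0.75, 8.95 and 14.5 CPM against 0, 0.0856 and 0.137 CPM, 6.56 ± 1.24). Krt81 was 7.79 without control 3 and 6.31 without hydrogel 3, Krt33b was 9.51 without control 3 and 6.08 without hydrogel 3 and Krt34 was 7.20 without control 3 and 5.83 without hydrogel 3. Krt33a and Krt33b, and Krt81 and Krt86, are near-identical copies, so how the counts split between such copies is uncertain.

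Outside that list, Krt87, another hair keratin, had 15.3, 115 and 189 CPM in hydrogel wounds, against 0, 2.14 and 1.79 CPM in control wounds. Krt87 changed by 6.30 ± 1.12 on the log2 scale (adjusted p = 0.0051), and by 5.60 without hydrogel 3. Krtap7-1 and Krtap8-1 encode keratin-associated proteins of the hair shaft. Krtap7-1 had 1.4999, 54.5 and 94.7 CPM in hydrogel wounds, against 0, 0 and 0.275 CPM in control wounds. Krtap7-1 changed by 8.94 ± 1.61 on the log2 scale (adjusted p = 0.00526), and by 8.34 without control 2, 12.84 without control 3 and 8.10 without hydrogel 3. Krtap8-1 had 1.86, 46.1 and 76.7 CPM in hydrogel wounds, against 0, 0.471 and 0.595 CPM in control wounds. Krtap8-1 changed by 6.79 ± 1.42 on the log2 scale (adjusted p = 0.0135), and it lost its call without hydrogel 3 (6.003). Gprc5d, an orphan receptor made in cells that form hard keratin, had 4.302, 41.1 and 65.4 CPM in hydrogel wounds, against 0.116, 0.128 and 0.458 CPM in control wounds. Gprc5d changed by 7.24 ± 1.002 on the log2 scale (adjusted p = 0.00138), and by 8.15 without control 3 and 6.54 without hydrogel 3. Psors1c2 had 8.76, 32.1 and 52.4 CPM in hydrogel wounds, against 0.058, 0.471 and 1.24 CPM in control wounds. Psors1c2 changed by 5.68 ± 1.13 on the log2 scale (adjusted p = 0.00513), and by 6.75 without control 3 and 5.08 without hydrogel 3. Wnt8a, a Wnt ligand, had 0.987, 6.58 and 11.5 CPM in hydrogel wounds, against 0.116, 0.171 and 0.183 CPM in control wounds. Wnt8a changed by 5.26 ± 0.98 on the log2 scale (adjusted p = 0.0132), and by 4.52 without hydrogel 3 and lost its call without control 1 (5.11). These, with the hair keratins above, were the 12 genes with the largest rises among called genes averaging 5 CPM or more in hydrogel wounds, without overlap of the groups and leaving out predicted genes, and in each of them hydrogel 1 was the lowest hydrogel library.

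Summed over the hair list, the level was 4007, 5936 and 7358 CPM in hydrogel wounds, against 8.01, 632 and 1553 CPM in control wounds, so hydrogel wounds held more in all libraries and control 1 was nearly without it. Other members that rose were Krt32, Krt35, Krt71, Krt86, Msx2, Foxn1 and Padi3, of which Foxn1 and Msx2 encode transcription factors of the hair matrix. The number of members called was 8 without control 2, 8 without hydrogel 2 and 8 without hydrogel 3. With the 6 day 14 libraries alone edgeR called 0 of the 23 (10 at an unadjusted p below 0.05), and over 18 libraries DESeq2 called 12 and limma-voom 17. In that limma-voom fit, which gives each library a quality weight, none of the 12 genes with the largest rises passed, and Krtap8-1 did not pass in DESeq2 either. With the 6 day 14 libraries alone only Gprc5d and Psors1c2 of these 12 passed. Markers of pigment cells lay higher in the same libraries: of 10 melanocyte genes 2 rose (median 1.99; the number was 5 without control 1, 1 without hydrogel 1, 0 without hydrogel 2 (5 at an unadjusted p below 0.05) and 0 without hydrogel 3 (4 at an unadjusted p below 0.05)), with a summed level of 1651, 1430 and 1286 CPM in hydrogel wounds, against 84.1, 563 and 494 CPM in control wounds. Kit, the receptor for stem cell factor, had 37.3, 52.9 and 63.2 CPM in hydrogel wounds, against 2.96, 21.2 and 23.3 CPM in control wounds. Kit changed by 1.69 ± 0.49 on the log2 scale (adjusted p = 0.0308), and it lost its call without hydrogel 2 (1.67) and hydrogel 3 (1.51). Slc45a2, a transporter of melanosomes, had 30.4, 45.9 and 57.6 CPM in hydrogel wounds, against 0.058, 7.28 and 10.9 CPM in control wounds. Slc45a2 changed by 2.87 ± 0.88 on the log2 scale (adjusted p = 0.0405), and by 3.58 without control 3 and lost its call without control 2 (3.02), hydrogel 1 (3.09), hydrogel 2 (2.86) and hydrogel 3 (2.65). In bulk tissue, more cells of a type and more RNA per cell cannot be told apart.

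**Figure D2:**
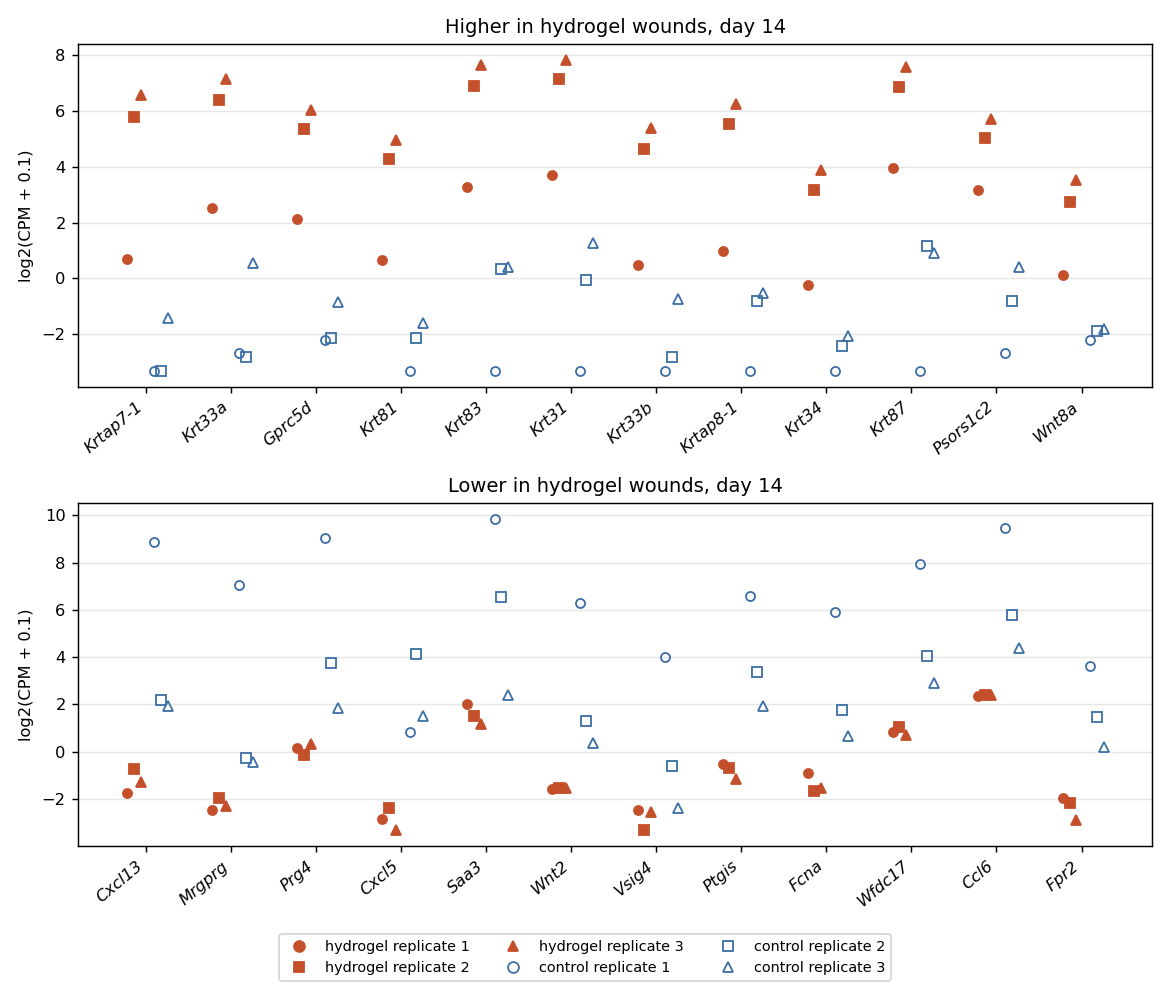
Levels of the 12 genes with the largest rise (top) and the 12 with the largest fall (bottom) in every day 14 library, as log2(CPM + 0.1), with hydrogel libraries in filled red symbols left of control libraries in open blue symbols. Hydrogel 1 is the lowest hydrogel library for each gene at the top, and control 1 is the highest library for each gene at the bottom except Cxcl5.

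Genes of cell division were higher as a group. Of 27 cell cycle genes 15 rose and 12 did not pass, with a median of 1.54 (1.08 to 2.16 with 1 library left out), and the groups did not overlap for any of the 27. Mcm2, Mcm5 and Mcm6 encode subunits of the replicative DNA helicase. Mcm5 had 131, 135 and 141 CPM in hydrogel wounds, against 7.601, 41.2 and 43.01 CPM in control wounds. Mcm5 changed by 2.15 ± 0.44 on the log2 scale (adjusted p = 0.00577). Mcm2 had 113, 114 and 115 CPM in hydrogel wounds, against 14.5, 41.4 and 52.2 CPM in control wounds. Mcm2 changed by 1.66 ± 0.31 on the log2 scale (adjusted p = 0.00376). Mcm6 had 87.1, 91.7 and 99.2 CPM in hydrogel wounds, against 8.76, 35.5 and 31.1 CPM in control wounds. Mcm6 changed by 1.88 ± 0.41 on the log2 scale (adjusted p = 0.0076). All 3 hydrogel libraries were nearly equal for these genes, while control 1 lay far below control 2 and 3. Without control 1 the log2 fold changes of Mcm2, Mcm5 and Mcm6 were 1.28, 1.69 and 1.48, and all 3 passed. Aurka, a kinase of the spindle poles, had 36.4, 39.96 and 42.99 CPM in hydrogel wounds, against 4.24, 15.5 and 21.3 CPM in control wounds. Aurka changed by 1.54 ± 0.38 on the log2 scale (adjusted p = 0.0147), and it lost its call without hydrogel 2 (1.54) and hydrogel 3 (1.48). The other members that rose included Mcm3, Rrm2, Ccna2, Ccnb1, Ccnb2, Cdc20, Plk1, Aurkb, Bub1b, Tpx2 and Kif20a, which serve DNA supply, cyclin control and mitosis.

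The number of cell cycle genes called was 7 without control 1, 7 without control 2, 25 without control 3, 8 without hydrogel 1, 3 without hydrogel 2 and 3 without hydrogel 3, and with the 6 day 14 libraries alone it was 0 (19 at an unadjusted p below 0.05, edgeR), while DESeq2 called 22 and limma-voom 27 over 18 libraries. The summed level of the list was 2566, 2842 and 3129 CPM in hydrogel wounds, against 321, 1029 and 1779 CPM in control wounds. The promoters of Mcm5 and Mcm6 are shown for the motifs they carry, again as 250 bases before the RefSeq start (GRCm38.p6; Mcm5 on the plus strand, Mcm6 on the minus strand), with capitals at TTTGGCGC and TTTCGCGC, letters bound by E2F factors, and at CCAAT, bound by NF-Y, on either strand.
Mcm5 (chr8:75109259-75109508): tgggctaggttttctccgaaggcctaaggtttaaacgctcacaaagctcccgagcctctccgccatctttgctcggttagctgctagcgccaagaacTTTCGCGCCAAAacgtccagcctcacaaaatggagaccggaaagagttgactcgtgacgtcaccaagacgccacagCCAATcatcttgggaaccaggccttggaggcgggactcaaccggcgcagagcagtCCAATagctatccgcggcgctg
Mcm6 (chr1:128359706-128359955): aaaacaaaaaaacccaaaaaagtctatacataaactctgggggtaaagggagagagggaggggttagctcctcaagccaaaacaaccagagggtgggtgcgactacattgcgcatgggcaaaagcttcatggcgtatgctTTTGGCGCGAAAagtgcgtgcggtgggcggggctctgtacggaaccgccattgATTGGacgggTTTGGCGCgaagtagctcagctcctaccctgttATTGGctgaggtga
In Mcm5, TTTCGCGC began 153 bases before the start and overlapped TTTGGCGC on the other strand at 149, and CCAAT stood 77 and 22 bases before it. In Mcm6, TTTGGCGC stood 110 and 47 bases before the start, the first overlapping TTTCGCGC on the other strand at 106, and CCAAT lay on the other strand at 57 and 14. Of the 32817 windows, 0.417% held TTTGGCGC, 0.256% TTTCGCGC and 33.8% CCAAT. Since Mcm5 and Mcm6 were shown for holding these motifs and the other cell cycle genes were not examined singly, these shares test no enrichment.

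Few epidermal genes passed. Of 15 genes of basal keratinocytes 1 rose (Cdh3, P-cadherin, which hair matrix cells also carry) and 14 did not pass, with a median of 0.37, which ranged from -0.02 to 1.06 with 1 library left out (-0.02 without control 1). The number called was 2 without control 3, 0 without hydrogel 1 (2 at an unadjusted p below 0.05), 0 without hydrogel 2 (2 at an unadjusted p below 0.05) and 0 without hydrogel 3 (2 at an unadjusted p below 0.05). Krt14 and Krt5, the keratin pair of the basal layer, did not pass. Krt14 had 2161, 1817 and 1590.3 CPM in hydrogel wounds, against 152, 1613 and 2139 CPM in control wounds. Krt14 differed by 0.51 ± 0.58 on the log2 scale (adjusted p = 0.574). Krt5 had 2417, 2253 and 2156 CPM in hydrogel wounds, against 210.4, 1493 and 2309.7 CPM in control wounds. Krt5 differed by 0.77 ± 0.52 on the log2 scale (adjusted p = 0.33). Control 1 was alone in being low, and the other 2 control libraries lay within or near the range of the hydrogel libraries. Without control 1 the log2 fold change of Krt14 was -0.02. Krt10, a keratin of the suprabasal layers, had 97.7, 83.8 and 72.6 CPM in hydrogel wounds, against 65.9, 36.4 and 83.2 CPM in control wounds. Krt10 differed by 0.45 ± 0.79 on the log2 scale (adjusted p = 0.73). Krt6a, which wound-edge keratinocytes switch on, had 66.4, 52.3 and 41.6 CPM in hydrogel wounds, against 7.77, 84.8 and 93.9 CPM in control wounds. Krt6a differed by -0.22 ± 0.65 on the log2 scale (adjusted p = 0.845), and its groups overlapped too.

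Among 22 suprabasal and cornified genes Tgm3 and Tgm1 rose, the transglutaminases that cross-link the cornified envelope and, for Tgm3, the hair shaft, and 20 did not pass (median 0.64, and 0.32 to 1.32 with 1 library left out; the number was 1 without control 1, 1 without control 2, 1 without hydrogel 2 and 1 without hydrogel 3). Tgm3 had 12.8, 32.9 and 49.9 CPM in hydrogel wounds, against 2.901, 2.01 and 4.49 CPM in control wounds. Tgm3 changed by 3.34 ± 0.45 on the log2 scale (adjusted p = 0.000955), with no overlap, and passed in each of the 15 alternatives. Tgm1 had 26.1, 34.3 and 40.2 CPM in hydrogel wounds, against 3.83, 7.37 and 14.6 CPM in control wounds. Tgm1 changed by 1.96 ± 0.54 on the log2 scale (adjusted p = 0.0229), and by 2.58 without control 3 and lost its call without control 1 (1.61), control 2 (1.86), hydrogel 2 (1.95) and hydrogel 3 (1.81). Of 18 wound-edge genes 2 fell and 16 did not pass (median -0.20, and -0.68 to 0.02 with 1 library left out; the number was 1 without hydrogel 3). They were Mmp13, a collagenase, and Plaur, the urokinase receptor, both of which stromal and immune cells make as well. Plaur had 5.17, 5.08 and 3.52 CPM in hydrogel wounds, against 17.9, 23.98 and 14.8 CPM in control wounds. Plaur changed by -2.04 ± 0.45 on the log2 scale (adjusted p = 0.00856), and it lost its call without hydrogel 3 (-1.88). Of 14 sebaceous gland genes only Fads2, a fatty acid desaturase, rose (median 0.94, and 0.44 without control 1). Of 23 growth factors of the epidermis and hair only Igf1 fell (median 0.55, and 0.08 without control 1). No other member of either list passed. Without control 3, 4 of the growth factors rose and 3 fell.

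Sterol synthesis genes were higher, 5 of 22 by the test (median 1.10, and 0.68 without control 1), and the groups did not overlap for 18 of them. Their summed level was 4642, 4048 and 3690 CPM in hydrogel wounds, against 343, 3385 and 2064 CPM in control wounds. Srebf2, the transcription factor that drives the pathway, had 193, 199.7 and 219 CPM in hydrogel wounds, against 32.5, 100.5 and 96.2 CPM in control wounds. Srebf2 changed by 1.42 ± 0.30 on the log2 scale (adjusted p = 0.00737). Mvk, mevalonate kinase, had 62.3, 58.1 and 56.2 CPM in hydrogel wounds, against 19.6, 36.4 and 30.3 CPM in control wounds. Mvk changed by 1.03 ± 0.22 on the log2 scale (adjusted p = 0.00753). Sc5d, which makes a late double bond of cholesterol, had 27.4, 30.5 and 34.6 CPM in hydrogel wounds, against 10.9, 13.9 and 18.9 CPM in control wounds. Sc5d changed by 1.08 ± 0.22 on the log2 scale (adjusted p = 0.00614). Dhcr7 and Fdps also rose, and Dhcr7 lost its call without hydrogel 2 (1.28) and hydrogel 3 (1.25). Each of the 3 genes given in full was higher in all hydrogel than in all control libraries, with control 1 lowest. The number called was 8 without control 2, 3 without hydrogel 2 and 3 without hydrogel 3, and 0 with the 6 day 14 libraries alone (6 at an unadjusted p below 0.05, edgeR), against 5 by DESeq2 and 11 by limma-voom. Of 18 genes of fatty acid synthesis and elongation 1 rose, again Fads2 (median 0.80, and 0.44 without control 1). The number was 2 without control 2 and 2 without control 3.

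**Figure D3:**
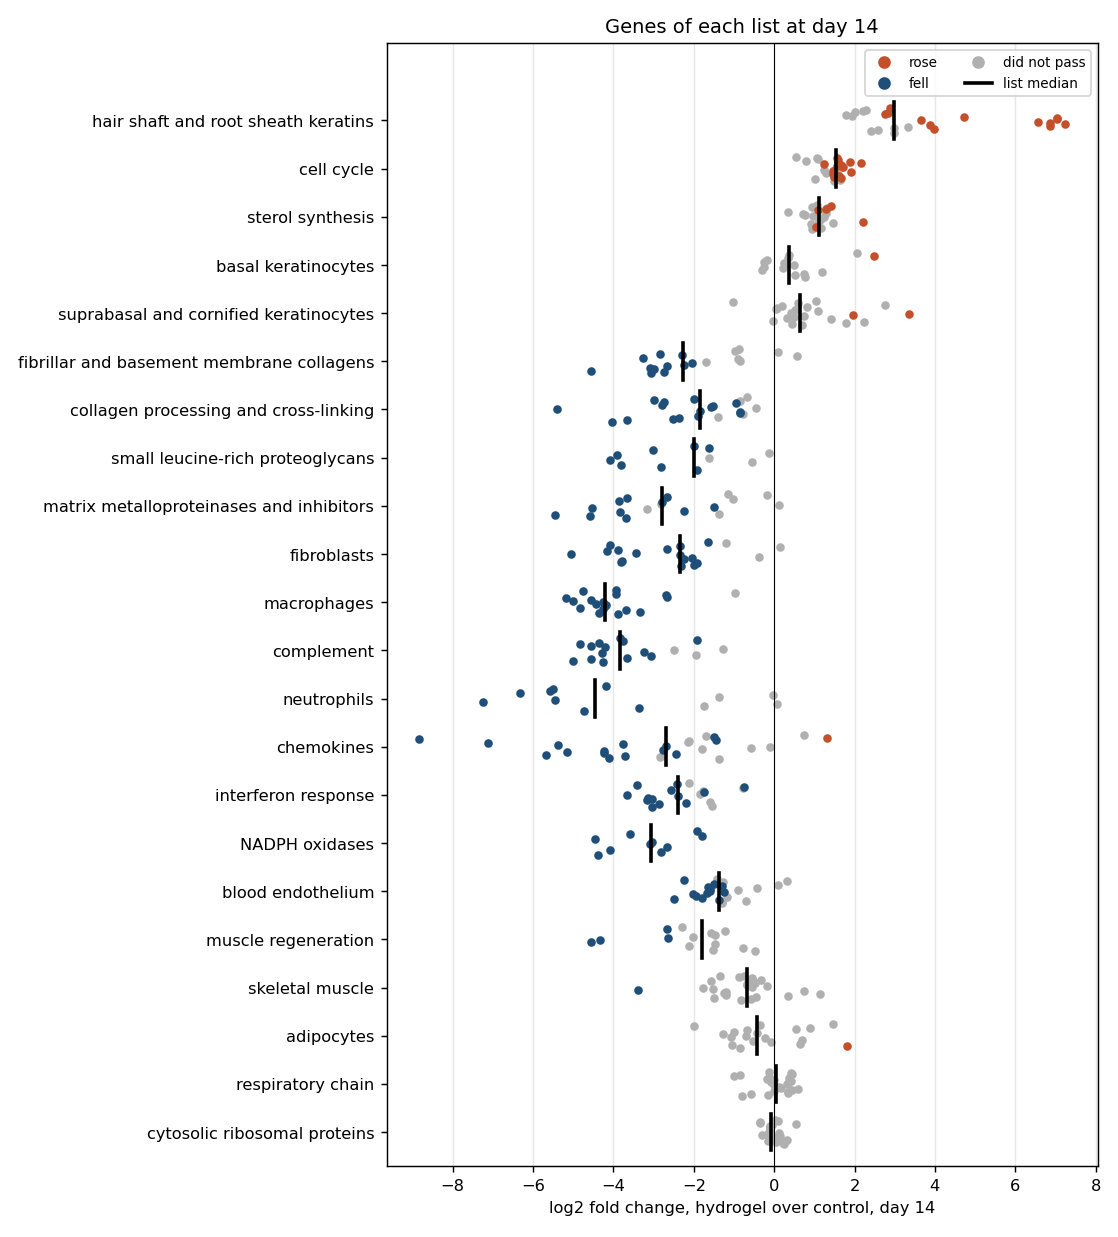
Log2 fold change, hydrogel over control at day 14, of each tested gene in 22 lists, with genes that rose in red, genes that fell in dark blue, genes that did not pass in grey and the list median as a black bar. The hair list is spread to the right with a median of 2.99, and the macrophage list lies to the left with a median of -4.20.

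Collagens and their processing genes were lower in hydrogel wounds. Of 18 fibrillar and basement membrane collagens 11 fell and 7 did not pass (median -2.27), and of 21 genes of collagen processing and cross-linking 16 fell and 5 did not pass (median -1.85). The fit to the 6 day 14 libraries alone called 8 of the collagens and 6 of the processing genes. Col1a1, the main chain of type I collagen, had 1085, 883 and 731 CPM in hydrogel wounds, against 12119, 6546 and 4003 CPM in control wounds. Col1a1 changed by -3.07 ± 0.40 on the log2 scale (adjusted p = 0.000842). Col3a1, the chain of type III collagen that marks early repair tissue, had 587, 524 and 479.7 CPM in hydrogel wounds, against 26258, 6711 and 4681 CPM in control wounds. Col3a1 changed by -4.56 ± 0.73 on the log2 scale (adjusted p = 0.00187), and by -3.43 without control 1. The 3 hydrogel libraries were all below the control libraries in both, and control 1 was the highest library. Col1a2 had 537, 432 and 391 CPM in hydrogel wounds, against 4093, 3814 and 1182 CPM in control wounds. Col1a2 changed by -2.74 ± 0.41 on the log2 scale (adjusted p = 0.00142). Col5a1, which starts fibrils, had 123, 91.9 and 66.6 CPM in hydrogel wounds, against 1067, 729 and 435 CPM in control wounds. Col5a1 changed by -2.99 ± 0.47 on the log2 scale (adjusted p = 0.00184). Col8a1, a short-chain collagen of vessels and repair tissue, had 4.89, 4.305 and 3.56 CPM in hydrogel wounds, against 41.8, 65.05 and 15.6 CPM in control wounds. Col8a1 changed by -3.26 ± 0.37 on the log2 scale (adjusted p = 0.000552). Col1a1, Col3a1, Col5a1, Col5a2 and Col8a1 passed in each of the 15 alternatives. The number of collagens called was 7 without hydrogel 2 and 6 without hydrogel 3, and the summed level of the list was 2728 to 3862 CPM in hydrogel wounds, against 13299.9 to 48369.8 CPM in control wounds.

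Among the enzymes, P4ha3, a collagen prolyl hydroxylase, had 1.11, 0.593 and 0.518 CPM in hydrogel wounds, against 62.4, 21.2 and 10.4 CPM in control wounds. P4ha3 changed by -5.40 ± 0.66 on the log2 scale (adjusted p = 0.000842), and by -4.42 without control 1. Loxl2 and Loxl3 are lysyl oxidases that cross-link collagen. Loxl2 had 31.9, 27.98 and 22.9 CPM in hydrogel wounds, against 238, 150.1 and 87.99 CPM in control wounds. Loxl2 changed by -2.53 ± 0.32 on the log2 scale (adjusted p = 0.000842). Loxl3 had 5.25, 5.61 and 5.32 CPM in hydrogel wounds, against 39.5, 24.8 and 19.6 CPM in control wounds. Loxl3 changed by -2.37 ± 0.27 on the log2 scale (adjusted p = 0.000493). Bmp1, which cuts the end of procollagen, had 87.5, 83.6 and 78.03 CPM in hydrogel wounds, against 314, 236 and 169 CPM in control wounds. Bmp1 changed by -1.53 ± 0.21 on the log2 scale (adjusted p = 0.000955). All these genes were lower in every hydrogel library than in every control library. Of 11 small leucine-rich proteoglycans, which coat collagen fibrils, 8 fell (median -1.98, and -1.37 without control 1). The fit to the 6 day 14 libraries alone called 2 of them. Lum, lumican, had 28.7, 21.9 and 20.7 CPM in hydrogel wounds, against 568, 278 and 154 CPM in control wounds. Lum changed by -3.81 ± 0.48 on the log2 scale (adjusted p = 0.000842), and by -3.18 without control 1. Aspn, asporin, had 13.1, 12.7 and 12.1 CPM in hydrogel wounds, against 320.2, 155 and 91.2 CPM in control wounds. Aspn changed by -3.90 ± 0.50 on the log2 scale (adjusted p = 0.000842), and by -3.29 without control 1. Bgn and Ogn fell as well. Bgn was -1.98 without control 1, and Ogn was -2.15 without control 1.

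Proteases of the matrix went the same way: of 18 matrix metalloproteinases and inhibitors 11 fell and 7 did not pass (median -2.80, and -2.03 without control 1). The fit to the 6 day 14 libraries alone called 5 of them. Mmp13 had 0.71, 0.468 and 0.345 CPM in hydrogel wounds, against 8.53, 19.4 and 7.42 CPM in control wounds. Mmp13 changed by -4.53 ± 0.57 on the log2 scale (adjusted p = 0.000842). Mmp2, a gelatinase of fibroblasts, had 43.1, 39.7 and 33.1 CPM in hydrogel wounds, against 975, 392 and 113 CPM in control wounds. Mmp2 changed by -3.68 ± 0.52 on the log2 scale (adjusted p = 0.0012), and by -2.71 without control 1. Timp1, an inhibitor of these proteases, had 8.25, 6.24 and 5.11 CPM in hydrogel wounds, against 138, 59.6 and 50.3 CPM in control wounds. Timp1 changed by -3.66 ± 0.53 on the log2 scale (adjusted p = 0.0013), and by -3.07 without control 1. Mmp11 also fell (log2 fold change -2.24 ± 0.34, adjusted p = 0.00161). Enzymes and the inhibitor were thus both lower, with no overlap of the groups.

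The genes of the cells that make matrix fell with it. Of 19 fibroblast markers 16 fell and 3 did not pass (median -2.34, and -1.42 without control 1), and their summed level was 1792, 1526 and 1326 CPM in hydrogel wounds, against 18076, 4928 and 3333 CPM in control wounds. Pdgfrb, the receptor for platelet-derived growth factor, had 33.1, 28.7 and 25.03 CPM in hydrogel wounds, against 118, 130.4 and 94.999 CPM in control wounds. Pdgfrb changed by -1.98 ± 0.20 on the log2 scale (adjusted p = 0.000207), with close replicates in both groups. Fbln2 had 126, 84.4 and 58.4 CPM in hydrogel wounds, against 676, 476 and 209 CPM in control wounds. Fbln2 changed by -2.34 ± 0.36 on the log2 scale (adjusted p = 0.00171). Mfap5, a microfibril protein of dermal fibroblasts, had 12.3, 12.2 and 14.6 CPM in hydrogel wounds, against 1121, 96.2 and 78.9 CPM in control wounds. Mfap5 changed by -5.05 ± 0.80 on the log2 scale (adjusted p = 0.00187), and by -2.75 without control 1. The number of fibroblast markers called was 9 without control 1, 9 without hydrogel 2 and 8 without hydrogel 3, and 3 with the 6 day 14 libraries alone. Prg4, lubricin, had 1.03, 0.811 and 1.14 CPM in hydrogel wounds, against 525, 13.2 and 3.48 CPM in control wounds. Prg4 changed by -7.50 ± 1.501 on the log2 scale (adjusted p = 0.00521), and by -3.07 without control 1.

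Of 15 myofibroblast and contractile genes 8 fell and 7 did not pass (median -0.99). The members that fell were secreted matrix and wound fibroblast genes, while the smooth muscle actin gene did not pass: Acta2 had 156, 139 and 133 CPM in hydrogel wounds, against 124, 179 and 188 CPM in control wounds. Acta2 differed by -0.20 ± 0.39 on the log2 scale (adjusted p = 0.765), with overlapping groups. Cthrc1, a secreted protein of activated fibroblasts, had 8.605, 6.83 and 5.87 CPM in hydrogel wounds, against 334, 117 and 78.1 CPM in control wounds. Cthrc1 changed by -4.63 ± 0.59 on the log2 scale (adjusted p = 0.000842), and by -3.78 without control 1. Tnc, tenascin C, had 54.98, 46.04 and 42.3 CPM in hydrogel wounds, against 219, 600.4 and 411 CPM in control wounds. Tnc changed by -3.10 ± 0.45 on the log2 scale (adjusted p = 0.0013). Fn1, fibronectin, had 146, 128 and 114 CPM in hydrogel wounds, against 1319.5, 611 and 300.1 CPM in control wounds. Fn1 changed by -2.52 ± 0.45 on the log2 scale (adjusted p = 0.00317), and by -1.82 without control 1. Sparc had 647, 569 and 514 CPM in hydrogel wounds, against 8735, 3126 and 1814 CPM in control wounds. Sparc changed by -2.98 ± 0.55 on the log2 scale (adjusted p = 0.00359), and by -2.10 without control 1. Tnc was highest in control 2, unlike the others. The number called was 5 without hydrogel 2 and 5 without hydrogel 3.

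Of 23 TGF-beta pathway genes 6 fell and 17 did not pass (median -0.21). They comprised the receptors Tgfbr2 (log2 fold change -2.70 ± 0.55, adjusted p = 0.00557; it was -1.58 without control 1) and Tgfbr3 (log2 fold change -2.22 ± 0.40, adjusted p = 0.00324; it was -1.37 without control 1), the target genes Tgfbi (log2 fold change -2.10 ± 0.37, adjusted p = 0.0031) and Ccn2 (log2 fold change -1.66 ± 0.39, adjusted p = 0.011; it lost its call without hydrogel 2 (-1.61) and hydrogel 3 (-1.48)), the BMP inhibitor Grem1 and the latent binding protein Ltbp2. Other genes were among the 12 with the largest falls: Wnt2, a Wnt ligand, had 0.237, 0.25 and 0.242 CPM in hydrogel wounds, against 78.8, 2.398 and 1.19 CPM in control wounds. Wnt2 changed by -6.78 ± 1.36 on the log2 scale (adjusted p = 0.00528), and by -2.85 without control 1. Ptgis, prostacyclin synthase, had 0.592, 0.53 and 0.345 CPM in hydrogel wounds, against 96.8, 10.2 and 3.76 CPM in control wounds. Ptgis changed by -6.22 ± 0.99 on the log2 scale (adjusted p = 0.00187), and by -3.83 without control 1. Mrgprg, a receptor of the Mas-related family, had 0.0789, 0.156 and 0.104 CPM in hydrogel wounds, against 134, 0.728 and 0.641 CPM in control wounds. Mrgprg changed by -8.53 ± 1.83 on the log2 scale (adjusted p = 0.00723), and it lost its call without control 1 (-2.51). In all 3 genes control 1 held most of the counts. The number of TGF-beta genes called was 3 without hydrogel 2 and 3 without hydrogel 3.

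**Figure D4:**
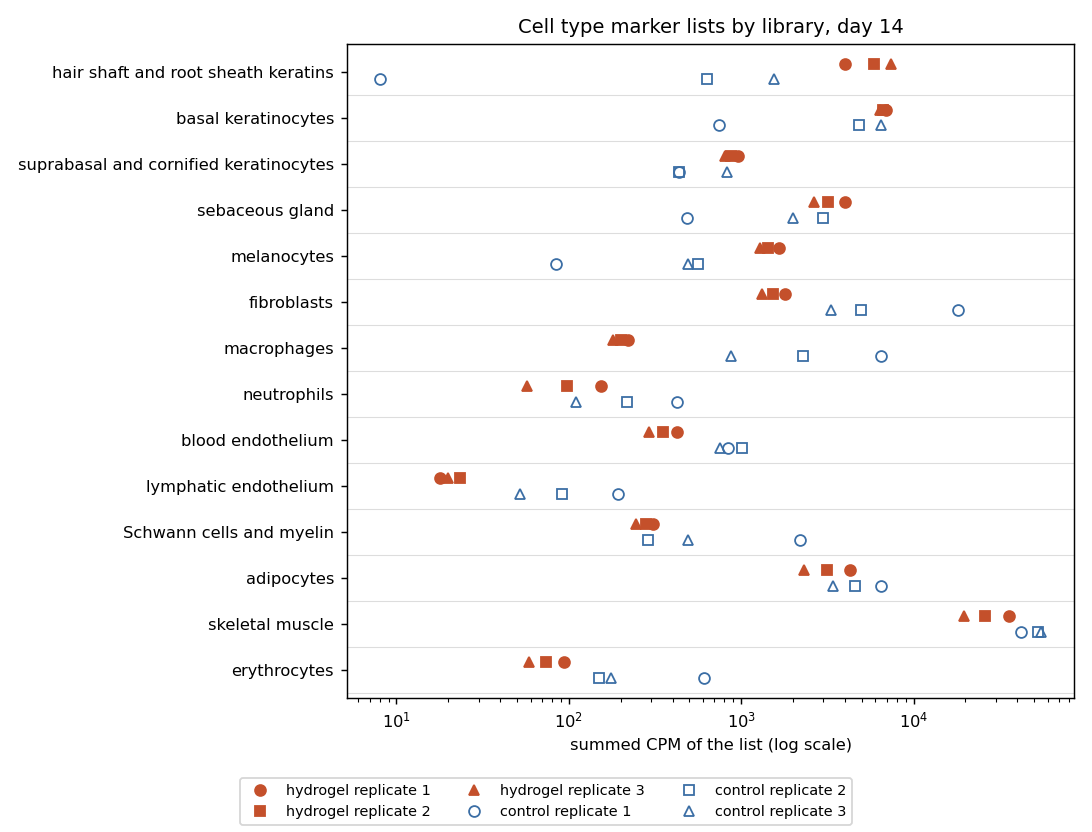
Summed CPM of 14 cell type marker lists in each day 14 library on a log axis, with hydrogel libraries in filled red symbols above control libraries in open blue symbols. Macrophage and fibroblast sums are lower in all hydrogel libraries, hair keratin and melanocyte sums are higher, and control 1 is lowest in the keratinocyte, hair and melanocyte sums and highest in the fibroblast and macrophage sums.

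Macrophage genes fell almost throughout. Of 19 markers 18 fell and 1 did not pass (median -4.20, against 0.03 over all genes), and 16 passed in all 6 fits that left out 1 library. The summed level was 221, 201 and 181 CPM in hydrogel wounds, against 6459, 2269.9 and 875 CPM in control wounds, so hydrogel replicates were alike while control replicates covered a range of several fold. Cd68, a lysosomal glycoprotein of macrophages, had 7.34, 5.68 and 5.46 CPM in hydrogel wounds, against 148, 82.2 and 45.3 CPM in control wounds. Cd68 changed by -3.90 ± 0.46 on the log2 scale (adjusted p = 0.00069). Cd14, the co-receptor for lipopolysaccharide, had 2.92, 2.402 and 2.83 CPM in hydrogel wounds, against 61.8, 46.5 and 16.8 CPM in control wounds. Cd14 changed by -3.94 ± 0.56 on the log2 scale (adjusted p = 0.00123). Ms4a7 had 1.18, 0.561 and 0.449 CPM in hydrogel wounds, against 53.7, 16.3 and 9.21 CPM in control wounds. Ms4a7 changed by -5.17 ± 0.80 on the log2 scale (adjusted p = 0.00168), and by -4.13 without control 1. Without control 1 the median of the list was -2.82, and 17 members fell. With the 6 day 14 libraries alone 8 passed. Some of the markers, Lyz2 and Tyrobp among them, are also made by other myeloid cells.

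Mrc1, the mannose receptor, had 6.91, 7.299 and 7.22 CPM in hydrogel wounds, against 315, 50.1 and 28.9 CPM in control wounds. Mrc1 changed by -4.20 ± 0.91 on the log2 scale (adjusted p = 0.00769), and by -2.47 without control 1. Arg1, arginase, had 2.25, 1.93 and 1.83 CPM in hydrogel wounds, against 6.96, 10.4 and 8.34 CPM in control wounds. Arg1 changed by -2.09 ± 0.61 on the log2 scale (adjusted p = 0.0303), and it lost its call without control 1 (-2.22), control 2 (-1.93), hydrogel 1 (-2.18), hydrogel 2 (-2.06) and hydrogel 3 (-2.03). Nos2, the inducible nitric oxide synthase, did not pass in edgeR with all libraries, with 1.03, 0.936 and 1.105 CPM in hydrogel wounds, against 1.86, 4.197 and 1.97 CPM in control wounds. Nos2 differed by -1.39 ± 0.47 on the log2 scale (adjusted p = 0.0571), though its groups did not overlap, and it passed in DESeq2, in limma-voom and without control 3. Of 13 genes of alternative macrophage activation 9 fell and 4 did not pass (median -2.46; the number was 5 without control 1, 5 without hydrogel 2 and 5 without hydrogel 3). Among those that did not pass, 1 member went the other way, with a log2 fold change of 4.86 and no overlap of the groups. DESeq2 called 1 member of the list higher. Stab1, a scavenger receptor, had 12.3, 11.8 and 8.804 CPM in hydrogel wounds, against 161, 70.3 and 50.1 CPM in control wounds. Stab1 changed by -3.10 ± 0.40 on the log2 scale (adjusted p = 0.000842), and by -2.46 without control 1. Il4ra, the interleukin 4 receptor chain, had 13.7, 13.4 and 9.91 CPM in hydrogel wounds, against 99.9, 62.5 and 41.5 CPM in control wounds. Il4ra changed by -2.46 ± 0.45 on the log2 scale (adjusted p = 0.00347). Cd163 had 3.71, 3.96 and 4.73 CPM in hydrogel wounds, against 194, 22.4 and 9.48 CPM in control wounds. Cd163 changed by -4.18 ± 0.85 on the log2 scale (adjusted p = 0.00548), and by -1.94 without control 1. Chil3 fell too (log2 fold change -5.29 ± 1.05, adjusted p = 0.0051; it was -3.80 without control 1). Vsig4, a complement receptor of resident macrophages, had 0.0789, 0 and 0.0691 CPM in hydrogel wounds, against 16.1, 0.557 and 0.0916 CPM in control wounds. Vsig4 changed by -6.69 ± 1.5 on the log2 scale (adjusted p = 0.00912), and it lost its call without control 1 (-2.64), hydrogel 2 (-6.09) and hydrogel 3 (-7.01).

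Complement genes fell too. Of 17 genes 14 fell and 3 did not pass (median -3.83, and -2.17 without control 1). The fit to the 6 day 14 libraries alone called 3 of them. The summed level was 705, 522 and 378 CPM in hydrogel wounds, against 8345, 1326 and 693 CPM in control wounds, so the groups overlapped. C1qa and C1qc encode chains of C1q, which macrophages make, and both are also in the macrophage list. C1qa had 14.1, 12.6 and 8.77 CPM in hydrogel wounds, against 536, 94.9 and 48.3 CPM in control wounds. C1qa changed by -4.26 ± 0.73 on the log2 scale (adjusted p = 0.00261), and by -2.60 without control 1. C1qc had 9.95, 8.61 and 7.15 CPM in hydrogel wounds, against 485, 75.8 and 40.9 CPM in control wounds. C1qc changed by -4.55 ± 0.76 on the log2 scale (adjusted p = 0.00237), and by -2.77 without control 1. C1ra, a protease of the C1 complex that fibroblasts make, had 10.3, 9.64 and 9.77 CPM in hydrogel wounds, against 287, 60.5 and 28.5 CPM in control wounds. C1ra changed by -3.66 ± 0.61 on the log2 scale (adjusted p = 0.0024), and by -2.17 without control 1. C5ar1, the receptor for the C5a fragment, had 0.513, 0.749 and 0.414 CPM in hydrogel wounds, against 35.4, 8.65 and 4.31 CPM in control wounds. C5ar1 changed by -4.82 ± 0.82 on the log2 scale (adjusted p = 0.00259), and by -3.51 without control 1. Fcna, a ficolin that starts the lectin branch, had 0.434, 0.218 and 0.242 CPM in hydrogel wounds, against 60.2, 3.297 and 1.47 CPM in control wounds. Fcna changed by -6.17 ± 1.14 on the log2 scale (adjusted p = 0.00357), and by -2.996 without control 1. All hydrogel libraries were below all control libraries for these genes, and control 1 was the highest.

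Of 12 neutrophil genes 8 fell and 4 did not pass (median -4.45). The number called was 4 without hydrogel 3 and 3 with the 6 day 14 libraries alone. The summed level overlapped between groups, at 154, 97.1 and 56.9 CPM in hydrogel wounds, against 422, 216 and 110 CPM in control wounds. Clec4d, a C-type lectin, had 0.947, 0.686 and 0.38 CPM in hydrogel wounds, against 51.6, 28.01 and 12.3 CPM in control wounds. Clec4d changed by -5.51 ± 0.82 on the log2 scale (adjusted p = 0.00139), and by -4.91 without control 1. Csf3r, the receptor for G-CSF, had 0.671, 0.686 and 0.414 CPM in hydrogel wounds, against 27.97, 13.4 and 6.05 CPM in control wounds. Csf3r changed by -4.72 ± 0.74 on the log2 scale (adjusted p = 0.00187), and by -4.03 without control 1. Fpr2, a formyl peptide receptor, had 0.158, 0.125 and 0.0345 CPM in hydrogel wounds, against 12.3, 2.698 and 1.05 CPM in control wounds. Fpr2 changed by -5.58 ± 1.02 on the log2 scale (adjusted p = 0.00347), and by -4.08 without control 1. Ngp was at 0 in all 6 libraries. Of the genes that keratinocytes and neutrophils share, S100a8, S100a9 and Lcn2 stand in the list, and none of these passed.

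Chemokines fell in 15 of 25 cases and rose in 1 (median -2.70). The number called was 9 without control 1, 9 without hydrogel 2 and 8 without hydrogel 3. It was 5 with the 6 day 14 libraries alone. Cxcl13, which draws B cells, had 0.197, 0.499 and 0.311 CPM in hydrogel wounds, against 469, 4.41 and 3.71 CPM in control wounds. Cxcl13 changed by -8.83 ± 1.75 on the log2 scale (adjusted p = 0.00504), and by -3.54 without control 1. Cxcl5 and Cxcl2 draw neutrophils. Cxcl5 had 0.0395, 0.0936 and 0 CPM in hydrogel wounds, against 1.68, 17.3 and 2.75 CPM in control wounds. Cxcl5 changed by -7.11 ± 1.37 on the log2 scale (adjusted p = 0.00441), and by -5.40 without control 2 and -8.15 without hydrogel 2. Cxcl2 had 0.118, 0.0624 and 0.0345 CPM in hydrogel wounds, against 3.31, 5.22 and 1.05 CPM in control wounds. Cxcl2 changed by -5.38 ± 0.85 on the log2 scale (adjusted p = 0.00187). Ccl11, eotaxin, had 1.86, 1.68 and 1.62 CPM in hydrogel wounds, against 84.9, 7.75 and 5.22 CPM in control wounds. Ccl11 changed by -4.24 ± 0.79 on the log2 scale (adjusted p = 0.00371), and by -1.91 without control 1. Ccl6 had 5.05, 5.21 and 5.11 CPM in hydrogel wounds, against 706, 55.5 and 20.98 CPM in control wounds. Ccl6 changed by -5.67 ± 1.24 on the log2 scale (adjusted p = 0.00799), and it lost its call without control 1 (-2.90) and hydrogel 3 (-5.66). Wfdc17, a small secreted protein of myeloid cells, had 1.697, 1.996 and 1.52 CPM in hydrogel wounds, against 248, 16.6 and 7.42 CPM in control wounds. Wfdc17 changed by -5.70 ± 1.20 on the log2 scale (adjusted p = 0.00672), and by -2.79 without control 1. The gene that rose was Cxcl14, which epidermis and hair follicles make.

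Of 16 inflammatory cytokines 6 fell and 10 did not pass (median -1.80; the number was 3 without hydrogel 3). Il6 had 0.118, 0.187 and 0.138 CPM in hydrogel wounds, against 0.928, 2.91 and 1.099 CPM in control wounds. Il6 changed by -3.41 ± 0.75 on the log2 scale (adjusted p = 0.00799), and by -2.71 without control 2. Il1b had 1.07, 1.22 and 1.55 CPM in hydrogel wounds, against 4.18, 12.98 and 3.66 CPM in control wounds. Il1b changed by -2.44 ± 0.69 on the log2 scale (adjusted p = 0.0274), and it lost its call without control 2 (-1.61), hydrogel 1 (-2.32), hydrogel 2 (-2.39) and hydrogel 3 (-2.60). Tnf did not pass, with 2.61, 3.77 and 2.87 CPM in hydrogel wounds, against 0.696, 2.91 and 2.61 CPM in control wounds. Tnf differed by 0.56 ± 0.62 on the log2 scale (adjusted p = 0.565), and its groups overlapped. Tslp, an epithelial cytokine, had 0.671, 0.437 and 0.345 CPM in hydrogel wounds, against 4.58, 2.698 and 2.43 CPM in control wounds. Tslp changed by -2.73 ± 0.45 on the log2 scale (adjusted p = 0.00224). Csf1, the macrophage growth factor, had 9.04, 8.796 and 8.29 CPM in hydrogel wounds, against 68.6, 24.97 and 19.7 CPM in control wounds. Csf1 changed by -2.11 ± 0.42 on the log2 scale (adjusted p = 0.00518), and by -1.36 without control 1. Il33 fell as well (log2 fold change -2.74 ± 0.61, adjusted p = 0.00873; it lost its call without control 1 (-1.78) and hydrogel 3 (-2.54)). Saa3, an acute-phase protein of macrophages and fibroblasts, had 3.91, 2.71 and 2.18 CPM in hydrogel wounds, against 925, 93.1 and 5.18 CPM in control wounds. Saa3 changed by -6.86 ± 1.30 on the log2 scale (adjusted p = 0.00406), and by -4.07 without control 1.

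Interferon response genes were lower, 13 of 19 by the test (median -2.40, and -1.62 without control 1), and the groups did not overlap for 18 of the 19. Oas2, a sensor of double-stranded RNA, had 2.84, 1.81 and 1.48 CPM in hydrogel wounds, against 13.98, 11.2 and 7.24 CPM in control wounds. Oas2 changed by -2.40 ± 0.37 on the log2 scale (adjusted p = 0.00167). Oasl2 had 6.08, 4.49 and 4.01 CPM in hydrogel wounds, against 67.4, 27.7 and 24.6 CPM in control wounds. Oasl2 changed by -3.04 ± 0.60 on the log2 scale (adjusted p = 0.00494), and by -2.43 without control 1. Oas3 and Oasl1 also fell, and Oas3 was -2.77 without control 1 while Oasl1 lost its call without control 1 (-2.36) and hydrogel 3 (-3.18). The number called was 3 without control 1, 8 without hydrogel 1, 4 without hydrogel 2 and 3 without hydrogel 3. It was 3 with the 6 day 14 libraries alone. Of 10 genes of class II antigen presentation 3 fell (median -0.78): Ctss, cathepsin S (log2 fold change -4.43 ± 0.78, adjusted p = 0.00301), Cd80 (log2 fold change -2.95 ± 0.43, adjusted p = 0.0013) and Cd86 (log2 fold change -2.21 ± 0.61, adjusted p = 0.0247; it lost its call without control 1 (-0.89), hydrogel 1 (-2.36), hydrogel 2 (-2.30) and hydrogel 3 (-1.97)). Lysosome genes fell in 9 of 20 cases (median -1.25; the number was 5 without control 1, 15 without control 3, 5 without hydrogel 2 and 5 without hydrogel 3), with Ctsl, cathepsin L, at 134, 106 and 78.9 CPM in hydrogel wounds, against 1265, 1053 and 483 CPM in control wounds. Ctsl changed by -3.14 ± 0.40 on the log2 scale (adjusted p = 0.000842). Ctsk, the collagen-cutting cathepsin K, had 54.4, 42.1 and 31.7 CPM in hydrogel wounds, against 694, 365 and 176 CPM in control wounds. Ctsk changed by -3.27 ± 0.52 on the log2 scale (adjusted p = 0.00187), and by -2.66 without control 1.

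Of 12 genes of dendritic and Langerhans cells 3 fell and 9 did not pass (median -1.06; the number was 1 without control 2, 0 without hydrogel 2 (6 at an unadjusted p below 0.05) and 0 without hydrogel 3 (5 at an unadjusted p below 0.05)), and Cd207, langerin, was not among them. T and NK cell genes gave 4 that fell and 1 that rose, of 18 (median -0.54; 1 without control 1, 3 without control 2, 9 without control 3, 3 without hydrogel 1, 1 without hydrogel 2 and 0 without hydrogel 3 (6 at an unadjusted p below 0.05)), with Il7r at 2.41, 2.43 and 1.59 CPM in hydrogel wounds, against 8.41, 19.2 and 7.604 CPM in control wounds. Il7r changed by -2.45 ± 0.55 on the log2 scale (adjusted p = 0.00912), and it lost its call without hydrogel 3 (-2.27). For B and plasma cells none of 6 passed in edgeR (2 at an unadjusted p below 0.05), against 1 lower by DESeq2 and 0 by limma-voom (median -1.03, and -0.41 without control 1). Mast cell genes gave 3 that fell (Hdc, Gata2 and Tpsab1) and 1 that rose, Kit, of 9 (median -1.31; the number was 2 without control 1, 0 without hydrogel 2 (4 at an unadjusted p below 0.05) and 1 without hydrogel 3). Without control 1 the median of the mast cell list had the other sign, at 0.94. Of 7 erythrocyte genes 3 fell, all of them haemoglobins (median -1.41, and -0.70 without control 1; the number was 0 without control 1 (3 at an unadjusted p below 0.05), 0 without hydrogel 2 (3 at an unadjusted p below 0.05) and 0 without hydrogel 3 (3 at an unadjusted p below 0.05)), and counts of the haemoglobin copies cannot be split with certainty.

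Oxidant-producing enzymes fell. Of 12 genes of the NADPH oxidase list, the 10 with enough counts to be tested all fell (median -3.07, and -2 without control 1; the number was 5 without hydrogel 3, and 1 with the 6 day 14 libraries alone). Ncf4 and Ncf1 encode cytosolic subunits of the phagocyte oxidase. Ncf4 had 3.79, 2.56 and 2.24 CPM in hydrogel wounds, against 40.3, 18.97 and 14.1 CPM in control wounds. Ncf4 changed by -3.09 ± 0.51 on the log2 scale (adjusted p = 0.00216). Ncf1 had 3.47, 3.28 and 2.49 CPM in hydrogel wounds, against 114, 31.9 and 12.001 CPM in control wounds. Ncf1 changed by -4.10 ± 0.82 on the log2 scale (adjusted p = 0.00521), and by -2.83 without control 1. Nox4, an oxidase of fibroblasts and vessels, had 1.46, 1.65 and 1.001 CPM in hydrogel wounds, against 79.2, 6.59 and 5.36 CPM in control wounds. Nox4 changed by -4.46 ± 0.83 on the log2 scale (adjusted p = 0.00369), and by -2.12 without control 1. Cybb, Ncf1 and Ncf4 are carried by phagocytes, and the macrophage sum given above was lower too. Duox1, Duox2 and Duoxa1 fell as well. The part of macrophage number in the fall of the list was not tested.

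Of 23 genes of the NRF2 and oxidant defence list 4 fell and 1 rose (median -0.19; the number was 2 without control 1, 3 without hydrogel 2 and 2 without hydrogel 3), where 16.1% of all genes passed. Hmox1, haem oxygenase, had 17.1, 13.8 and 11.4 CPM in hydrogel wounds, against 208, 96.6 and 68.2 CPM in control wounds. Hmox1 changed by -3.14 ± 0.52 on the log2 scale (adjusted p = 0.00228), and by -2.55 without control 1. Gpx3, the secreted glutathione peroxidase, had 149.6, 115 and 89.5 CPM in hydrogel wounds, against 3426, 779.8 and 454 CPM in control wounds. Gpx3 changed by -3.72 ± 0.57 on the log2 scale (adjusted p = 0.00159), and by -2.39 without control 1. Sod3, the extracellular superoxide dismutase, had 9.28, 8.92 and 7.94 CPM in hydrogel wounds, against 364, 36.02 and 21.1 CPM in control wounds. Sod3 changed by -4.01 ± 0.91 on the log2 scale (adjusted p = 0.00968), and it lost its call without control 1 (-1.71) and hydrogel 3 (-3.94). The member that rose was Gclc, which starts glutathione synthesis. Among 14 metallothionein and zinc transport genes 3 rose and 2 fell (median 0.13; the number was 3 without control 1, 3 without control 2, 2 without hydrogel 1, 1 without hydrogel 2 and 2 without hydrogel 3). Mt4, the metallothionein of stratified epithelium, had 74.996, 189 and 257 CPM in hydrogel wounds, against 5.396, 19.8 and 21.99 CPM in control wounds. Mt4 changed by 3.46 ± 0.60 on the log2 scale (adjusted p = 0.00274), with hydrogel 1 lowest of its group as for the hair keratins. Mt2, which metals induce in most cells, did not pass, with 15.1, 18.1 and 17.5 CPM in hydrogel wounds, against 13.9, 5.65 and 18.6 CPM in control wounds. Mt2 differed by 0.41 ± 0.36 on the log2 scale (adjusted p = 0.461), and 73.5% of its exonic length is shared with another annotated gene. Slc39a10 had 235, 307 and 395 CPM in hydrogel wounds, against 12.5, 70.3 and 191 CPM in control wounds. Slc39a10 changed by 1.78 ± 0.57 on the log2 scale (adjusted p = 0.0447), and by 2.91 without control 3 and lost its call without control 2 (1.62), hydrogel 1 (1.95), hydrogel 2 (1.79) and hydrogel 3 (1.57). Mt3 fell (log2 fold change -1.76 ± 0.56, adjusted p = 0.0421; it lost its call without control 1 (-0.98), hydrogel 1 (-1.83), hydrogel 2 (-1.70) and hydrogel 3 (-1.75)) and Slc30a4 fell (log2 fold change -0.89 ± 0.20, adjusted p = 0.00977; it lost its call without hydrogel 2 (-0.85)).

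Vessel genes were lower as well. Of 23 markers of blood endothelium 13 fell and 10 did not pass (median -1.37), and their summed level was 291 to 422 CPM in hydrogel wounds, against 753 to 1007 CPM in control wounds. Pecam1, an adhesion protein of endothelial junctions, had 33.9, 31.97 and 27.7 CPM in hydrogel wounds, against 64.2, 104 and 61.7 CPM in control wounds. Pecam1 differed by -1.30 ± 0.45 on the log2 scale (adjusted p = 0.0596) and did not pass in edgeR, though the groups did not overlap. It passed in DESeq2, in limma-voom and without control 3. Angpt2, the angiopoietin of sprouting vessels, had 4.4997, 3.43 and 3.42 CPM in hydrogel wounds, against 19.5, 20.3 and 14.1 CPM in control wounds. Angpt2 changed by -2.25 ± 0.37 on the log2 scale (adjusted p = 0.00224). Cldn5, a tight junction protein, had 11.999, 8.52 and 5.697 CPM in hydrogel wounds, against 43.6, 33.1 and 29.5 CPM in control wounds. Cldn5 changed by -2.02 ± 0.43 on the log2 scale (adjusted p = 0.00685). Tek, the angiopoietin receptor, had 6.32, 6.43 and 5.42 CPM in hydrogel wounds, against 66.96, 20.2 and 15.1 CPM in control wounds. Tek changed by -2.49 ± 0.53 on the log2 scale (adjusted p = 0.00729), and by -1.54 without control 1. The number of endothelial markers called was 8 without hydrogel 1, 5 without hydrogel 2 and 3 without hydrogel 3. It was 9 with the 6 day 14 libraries alone, and 1 in the fit to days 1 and 14 (17 at an unadjusted p below 0.05). Of 7 lymphatic markers 4 fell (median -2.04), with Lyve1 at 0.158, 0.187 and 0.207 CPM in hydrogel wounds, against 3.54, 2.66 and 1.008 CPM in control wounds. Lyve1 changed by -3.65 ± 0.51 on the log2 scale (adjusted p = 0.00114). Flt4, the receptor for VEGF-C and VEGF-D, had 2.61, 2.59 and 1.55 CPM in hydrogel wounds, against 8.18, 12.5 and 7.01 CPM in control wounds. Flt4 changed by -2.04 ± 0.37 on the log2 scale (adjusted p = 0.00351). Pdpn, podoplanin, which fibroblasts also carry, had 9.55, 13.6 and 15.4 CPM in hydrogel wounds, against 164, 53.3 and 33.8 CPM in control wounds. Pdpn changed by -2.70 ± 0.47 on the log2 scale (adjusted p = 0.00285), and by -1.76 without control 1.

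Among 22 angiogenic factors and receptors 9 fell and 1 rose, Notch1 (median -1.06; the number was 6 without hydrogel 2 and 5 without hydrogel 3). Vegfa, the main vessel growth factor, did not pass and its groups overlapped, with 47.8, 50.9 and 55.9 CPM in hydrogel wounds, against 30.3, 46.2 and 55.97 CPM in control wounds. Vegfa differed by 0.22 ± 0.36 on the log2 scale (adjusted p = 0.708). Vegfd had 5.13, 3.96 and 4.18 CPM in hydrogel wounds, against 43.2, 13.1 and 9.85 CPM in control wounds. Vegfd changed by -2.31 ± 0.44 on the log2 scale (adjusted p = 0.00409), and by -1.37 without control 1. Of 12 pericyte and smooth muscle genes 3 fell (median -0.63). Rgs5 had 77.995, 66.1 and 56.4 CPM in hydrogel wounds, against 143, 281 and 262 CPM in control wounds. Rgs5 changed by -1.77 ± 0.33 on the log2 scale (adjusted p = 0.00351). Kcnj8 had 6.51, 4.09 and 3.87 CPM in hydrogel wounds, against 36.4, 18.4 and 11.4 CPM in control wounds. Kcnj8 changed by -2.19 ± 0.36 on the log2 scale (adjusted p = 0.00223). Higd1b had 1.697, 1.59 and 1.795 CPM in hydrogel wounds, against 10.8, 7.37 and 8.43 CPM in control wounds. Higd1b changed by -2.38 ± 0.42 on the log2 scale (adjusted p = 0.00301), and these 3 pericyte genes passed in each fit that left out 1 library. Of 15 Schwann cell genes Pmp22 and Cdh19 fell (median -1.58, and -0.67 without control 1). The number called was 0 without control 1 (0 at an unadjusted p below 0.05), 7 without control 2, 5 without control 3, 0 without hydrogel 1 (9 at an unadjusted p below 0.05), 0 without hydrogel 2 (5 at an unadjusted p below 0.05) and 0 without hydrogel 3 (4 at an unadjusted p below 0.05). Pmp22 had 57.6, 55.2 and 50.9 CPM in hydrogel wounds, against 693, 73.5 and 105 CPM in control wounds. Pmp22 changed by -2.41 ± 0.75 on the log2 scale (adjusted p = 0.0399), and it lost its call without control 1 (-0.71), hydrogel 1 (-2.45), hydrogel 2 (-2.41) and hydrogel 3 (-2.36). Cdh19 lost its call without control 1 (-0.77), hydrogel 1 (-1.84), hydrogel 2 (-1.71) and hydrogel 3 (-1.71).

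The samples held muscle and fat along with skin. The summed level of 26 skeletal muscle genes was 35805, 26148 and 19628 CPM in hydrogel wounds, against 42109, 52744 and 55173 CPM in control wounds, lower in every hydrogel library, yet only Tnnc1, slow troponin C, fell by the test (median -0.67; the number was 0 without hydrogel 1 (1 at an unadjusted p below 0.05), 0 without hydrogel 2 (1 at an unadjusted p below 0.05) and 0 without hydrogel 3 (1 at an unadjusted p below 0.05)). Of 14 genes of muscle regeneration 4 fell and 10 did not pass (median -1.80). Mymk and Mymx drive the fusion of myoblasts. Mymk had 0.434, 0.281 and 0.0345 CPM in hydrogel wounds, against 1.28, 11.3 and 5.18 CPM in control wounds. Mymk changed by -4.55 ± 0.83 on the log2 scale (adjusted p = 0.00348), and by -3.68 without control 2 and -5.15 without hydrogel 1. Mymx had 0.276, 0.156 and 0.138 CPM in hydrogel wounds, against 4.93, 4.796 and 1.92 CPM in control wounds. Mymx changed by -4.32 ± 0.71 on the log2 scale (adjusted p = 0.00213). Tnnt2, a troponin of embryonic and regenerating fibres, had 5.41, 6.14 and 6.63 CPM in hydrogel wounds, against 19.96, 52.97 and 42.2 CPM in control wounds. Tnnt2 changed by -2.66 ± 0.53 on the log2 scale (adjusted p = 0.00527). Myh3, embryonic myosin, had 10.03, 6.24 and 4.04 CPM in hydrogel wounds, against 14.4, 84.3 and 27.02 CPM in control wounds. Myh3 changed by -2.63 ± 0.85 on the log2 scale (adjusted p = 0.0456), and it lost its call without control 2 (-1.62), hydrogel 1 (-3.03), hydrogel 2 (-2.57) and hydrogel 3 (-2.36). Adipocyte genes summed to 2327 to 4267 CPM in hydrogel wounds, against 3391 to 6461 CPM in control wounds. Of 19 only Lep rose (median -0.42, and 0.14 without control 1). The number called was 0 without control 1 (1 at an unadjusted p below 0.05). It was 0 without hydrogel 2 (2 at an unadjusted p below 0.05) and 0 without hydrogel 3 (2 at an unadjusted p below 0.05). Without control 3, 2 members fell and 0 rose, so Lep lost its call there.

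Of 24 genes of glycolysis and the hypoxia response only Adm fell (median -0.29; the number was 2 without control 3). Of 24 respiratory chain genes none passed in edgeR (2 at an unadjusted p below 0.05), DESeq2 or limma-voom (median 0.06, and -0.04 to 0.20 with 1 library left out). Of 24 cytosolic ribosomal protein genes none passed in edgeR (1 at an unadjusted p below 0.05) or DESeq2, and limma-voom called 10 higher (median -0.07, and 0.32 without control 1). Of 20 genes of insulin signalling and glucose handling 4 fell (median -0.37; the number was 1 without hydrogel 2 and 1 without hydrogel 3). Pdk4, which holds back glucose oxidation, had 31.6, 21.1 and 12.5 CPM in hydrogel wounds, against 239, 277 and 217 CPM in control wounds. Pdk4 changed by -3.49 ± 0.87 on the log2 scale (adjusted p = 0.015), and it lost its call without hydrogel 2 (-3.46) and hydrogel 3 (-3.21). Insr, the insulin receptor, had 31.7, 28.5 and 27 CPM in hydrogel wounds, against 53.1, 59.01 and 53.1 CPM in control wounds. Insr changed by -0.92 ± 0.22 on the log2 scale (adjusted p = 0.0114), and it lost its call without hydrogel 2 (-0.90) and hydrogel 3 (-0.87). Stress genes gave 2 that rose (Sdf2l1 and Creld2) and 1 that fell (Trib3), of 18 in the list of ER and integrated stress (median 0.03, and -0.02 to 0.06 with 1 library left out; the number was 1 without control 1, 1 without hydrogel 2 and 1 without hydrogel 3). Creld2 lost its call without control 1 (0.57), control 2 (0.69), hydrogel 1 (0.62), hydrogel 2 (0.69) and hydrogel 3 (0.72), and Trib3 lost its call without control 1 (-0.87), hydrogel 2 (-1.24) and hydrogel 3 (-1.27). Of 20 immediate early genes Fosb rose, with 38.6, 37.4 and 33.7 CPM in hydrogel wounds, against 15.7, 2.06 and 3.71 CPM in control wounds. Fosb changed by 2.36 ± 0.61 on the log2 scale (adjusted p = 0.0186), and by 3.66 without control 1 and lost its call without hydrogel 2 (2.35) and hydrogel 3 (2.42), while Klf2, Klf6 and Dusp1 fell (median -0.02, and 0.09 without control 1; the number was 1 without hydrogel 2 and 1 without hydrogel 3). Klf2 was -1.26 without control 1, Klf6 lost its call without control 1 (-0.76), hydrogel 2 (-1.23) and hydrogel 3 (-1.21) and Dusp1 lost its call without control 1 (-0.81), hydrogel 1 (-1.97), hydrogel 2 (-1.80) and hydrogel 3 (-1.67). Over all genes tested 16.1% passed, and the counts called in the insulin, stress and immediate early lists lay near that share.

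The difference at day 14 was set against those at days 1 and 7, which rest on other libraries. The change from the day 1 effect passed for 1844 genes (10.5% of those tested), 470 with a higher (2.67%) and 1374 with a lower effect at day 14 (7.81%), and the change from the day 7 effect for 302 genes (1.72%), 122 higher and 180 lower. Without hydrogel 2 these counts were 1008 and 68, without hydrogel 3 they were 923 and 70, and without control 1 they were 1375 and 1106. The medians of the macrophage list were 0.69, -2.76 and -4.20 at days 1, 7 and 14, and the change from day 1 passed for 17 of its 19 genes (edgeR). Complement medians were 0.48, -2.76 and -3.83, with 12 of 17 changed from day 1. Collagen medians were 0.17, -2.01 and -2.27, and processing genes gave 15 of 21 changed from day 1. The hair list had a median of 0.63 at day 7 and 2.99 at day 14, with 2 of 23 changed from day 1 and 2 from day 7. Cell cycle medians were 1.595, 0.83 and 1.54.

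**Figure D5:**
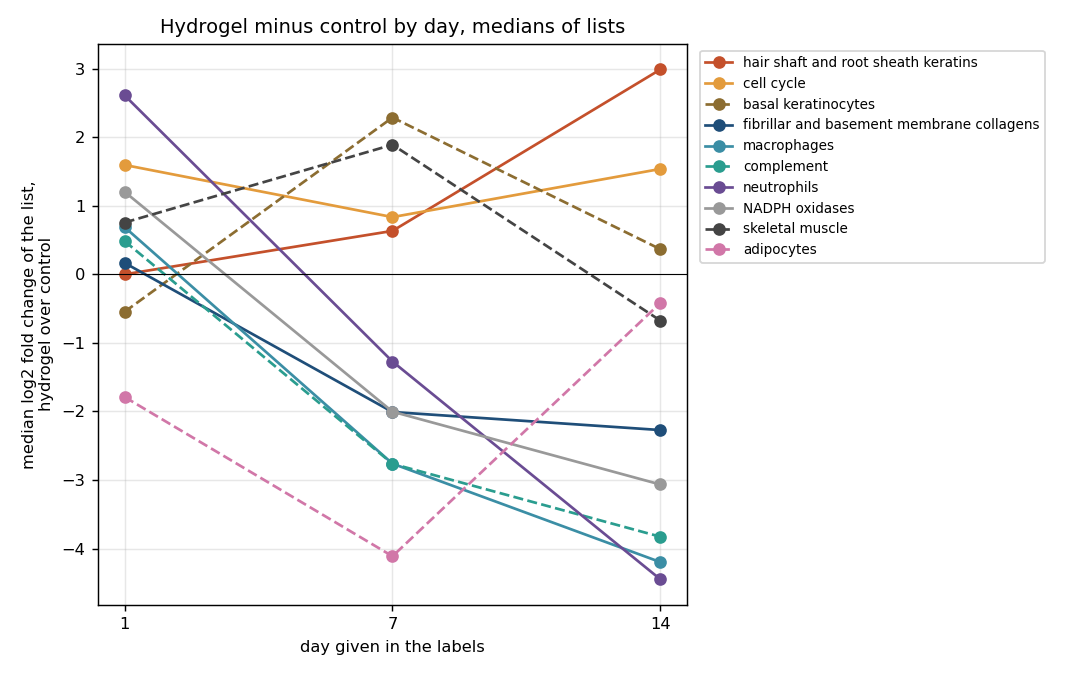
Median log2 fold change, hydrogel over control, of 10 gene lists at days 1, 7 and 14. The macrophage, complement and NADPH oxidase medians lie above 0 at day 1 and below it at days 7 and 14, the hair list has its highest median at day 14, and the adipocyte median lies nearest 0 at day 14.

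Genes whose effect changed most surely from day 1 had been higher in hydrogel wounds then. Rian, a maternally expressed non-coding RNA of an imprinted cluster, had 18.4, 16.8 and 16.7 CPM in hydrogel wounds, against 119, 74.1 and 80.1 CPM in control wounds at day 14 (log2 fold change -2.39 ± 0.22, adjusted p = 0.000146), and 19.8, 12.2 and 17.3 CPM in hydrogel wounds, against 7.54, 9.098 and 6.46 CPM in control wounds at day 1 (log2 fold change 1.09 ± 0.21). It passed in each of the 15 alternatives. Loxl3 had 8.94, 9.52 and 12.7 CPM in hydrogel wounds, against 4.21, 2.73 and 3.295 CPM in control wounds at day 1 (1.61 ± 0.27), and Col8a1 had 15.4, 11.6 and 10.9 CPM in hydrogel wounds, against 3.19, 2.96 and 2.85 CPM in control wounds (2.07 ± 0.37). Both were thus above the control range at day 1 and below it at day 14. Cyp4f18, an enzyme that inactivates leukotriene B4 in neutrophils, had 0.0395, 0.0624 and 0.0345 CPM in hydrogel wounds, against 2.15, 1.76 and 0.733 CPM in control wounds at day 14 (log2 fold change -4.87 ± 0.63, adjusted p = 0.000842), and 5.93, 5.997 and 3.11 CPM in hydrogel wounds, against 1.09, 0.303 and 0.38 CPM in control wounds at day 1 (3.06 ± 0.51). Mefv, the pyrin inflammasome gene, had 0.276, 0.218 and 0.345 CPM in hydrogel wounds, against 1.74, 5.35 and 2.15 CPM in control wounds at day 14 (log2 fold change -3.44 ± 0.53, adjusted p = 0.00161; it was -2.77 without control 2), and 5.67, 6.79 and 2.898 CPM in hydrogel wounds, against 0.476, 0.0758 and 0.253 CPM in control wounds at day 1 (4.20 ± 0.57). Castor2, Hip1 and Oas2 changed in the same direction, and at day 14 Castor2 lost its call without control 1 (-0.78), hydrogel 2 (-0.93) and hydrogel 3 (-0.89).

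From day 7 to day 14 the changes went both ways. Lep, leptin, had 1.54, 1.996 and 2.11 CPM in hydrogel wounds, against 0.348, 0.814 and 0.412 CPM in control wounds at day 14 (log2 fold change 1.81 ± 0.50, adjusted p = 0.0245; it lost its call without control 1 (1.601), control 3 (1.65), hydrogel 2 (1.77) and hydrogel 3 (1.73)), and 0.215, 0.616 and 0.401 CPM in hydrogel wounds, against 27.7, 28.7 and 25.97 CPM in control wounds at day 7 (-6.01 ± 0.58). The high level was in control wounds of day 7, and at day 14 both groups were low. Fbp1, an enzyme of glucose production, had 28.2, 41.6 and 49.996 CPM in hydrogel wounds, against 5.92, 4.197 and 3.85 CPM in control wounds at day 14 (log2 fold change 3.10 ± 0.47, adjusted p = 0.00143), and 1.22, 1.23 and 0.935 CPM in hydrogel wounds, against 5.13, 4.81 and 5.03 CPM in control wounds at day 7 (-2.14 ± 0.48). Ctnnbip1, an inhibitor of beta-catenin, had 46.5, 44.98 and 45.5 CPM in hydrogel wounds, against 19.1, 23.2 and 22.7 CPM in control wounds at day 14 (log2 fold change 1.07 ± 0.18, adjusted p = 0.00268), and 15.2, 15.1 and 16.4 CPM in hydrogel wounds, against 28.7, 30.1 and 28.3 CPM in control wounds at day 7 (-0.90 ± 0.19). Igfbp3, which binds insulin-like growth factors, had 45.3, 34 and 26.6 CPM in hydrogel wounds, against 1047, 295 and 120 CPM in control wounds at day 14 (log2 fold change -3.79 ± 0.55, adjusted p = 0.0013; it was -2.56 without control 1), and 457, 450 and 454 CPM in hydrogel wounds, against 108, 103 and 100 CPM in control wounds at day 7 (2.13 ± 0.52). Prodh, Crtac1, Fgd2 and Nr4a3 did not pass at day 14, with log2 fold changes of 0.19 ± 0.17, 0.76 ± 0.56, 0.65 ± 0.27 and 0.02 ± 0.40.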

How the data were processed

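Total RNA of wound tissue was made into libraries with an mRNA kit, per the labels' protocols. The authors deposited read-pair counts per gene symbol and library. Per the file headers, the authors counted pairs over exons of GENCODE vM25 with featureCounts 2.0.6, without strand and without reads that map to several places, so near-identical genes lose counts. Per the submitters' processing notes, Trim Galore 0.6.10, FastQC 0.11.9, HISAT2 2.2.1, SAMtools 1.9 and mm10 were used. The tables hold 52976 symbols, and the 32 mitochondrial genes listed are all at 0.

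Counts were tested here with edgeR 4.0.16 (R 4.3.3; TMM scaling, default filter, robust quasi-likelihood fit of 6 wound group means over 18 libraries, Benjamini-Hochberg adjustment over 17592 genes), with DESeq2 1.42.0 and limma 3.58.1 as alternatives, and the code was tested on simulated data. The change of effect between days was tested as a contrast in the same fit. Gene lists (48, with 827 symbols, 823 in the files and 791 tested) are described by counts and medians, with no set test. The members and lists were chosen with earlier results of these data known. Named genes were those with the largest changes, those that passed in each fit leaving out 1 library, up to 4 per list by adjusted p, a fixed panel, and 8 per change-of-effect test. Principal components used log2 CPM. The libraries of cultured macrophages were not used here.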

Additional observations from a re-analysis of the deposited data

Results flagged for a closer look

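The hydrogel effect at day 14 differed from that of another day by a test of the difference itself (edgeR, adjusted over 17592 genes) in the 16 genes chosen by the naming rule, 8 for each earlier day. Against day 1, the log2 fold change at day 14 was lower by the following amounts, given as day 14 minus day 1: Rian -3.48 ± 0.301 (adjusted p = 8.37e-05), Castor2 -3.23 ± 0.321, Loxl3 -3.98 ± 0.376, Col8a1 -5.33 ± 0.521, Cyp4f18 -7.93 ± 0.815, Mefv -7.64 ± 0.776, Hip1 -2.46 ± 0.271 and Oas2 -4.7 ± 0.522 (adjusted p = 0.000298). In each of these genes the effect was above 0 at day 1 and below 0 at day 14. Against day 7 the differences were 7.82 ± 0.755 for Lep (adjusted p = 0.000412), -5.91 ± 0.755 for Igfbp3, 5.24 ± 0.669 for Fbp1, 1.9 ± 0.243 for Prodh, 6.55 ± 0.82 for Crtac1, 2.95 ± 0.386 for Fgd2, 1.97 ± 0.262 for Ctnnbip1 and -4.31 ± 0.594 for Nr4a3 (adjusted p = 0.00461). The genes were picked for these tests, so the sizes are those of the most extreme genes.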

How the results depend on the processing

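The number of genes called at day 14, 2836, was 2071 to 4147 with other size factors, other filters, DESeq2 or the replicate block. It was 5828 with limma-voom and quality weights, 433 with only the 6 day 14 libraries, 617 with days 1 and 14 only and 552 with a minimum change of 2-fold. Leaving out 1 library gave 806 (hydrogel replicate 3) to 4322 (control replicate 3). The cause of these shifts was not tested. With limma-voom 50.7% of the called genes were higher, against 36.1% in edgeR. The change from day 1, 1844 genes, was 3005 by DESeq2 and 4879 by limma-voom, and 923 to 2978 with 1 library left out. The change from day 7, 302 genes, was 1453 by DESeq2 and 6764 by limma-voom, and 68 to 1106 with 1 library left out.

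Of the 174 named genes, Nr4a3, which lay near 0, turned its sign to -0.0257 with RLE size factors, -0.0258 with DESeq2, -0.10 with limma-voom, -0.0431 with only the day 14 libraries, -0.0179 with days 1 and 14, -0.25 without control replicate 3 and -0.22 without hydrogel replicate 1, where leaving out 1 library gave -0.25 to 0.19. Krt14 was -0.0166 without control replicate 1, the lowest of a range up to 1.07. Krt6a was 0.07 without control replicate 2 and 0.20 without control replicate 3, and -0.74 without control replicate 1. These genes did not pass in any of those fits. Of the named genes, 32 were called higher and 128 lower. Of these, 101 lost their call with only the 6 day 14 libraries. The number was 38 without hydrogel replicate 2, 44 without hydrogel replicate 3 and 29 without control replicate 1. Leaving out control replicate 1 moved the fold by more than 1.5 times in 68 of the lower genes and 1 of the higher genes.

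The replicate numbers were not taken as a pairing, since the deviations of same-numbered libraries correlated at 0.147, -0.018 and 0.240. With the replicate block 3056 genes passed at day 14, 1866 for the change from day 1 and 232 for the change from day 7. Among the named genes, Pmp22, Cdh19, Myh3 and Tpsab1 did not pass with the block and Pecam1 did, and the calls of the other named genes were the same. Not every library correlated best with its own number. With 3 libraries a group and 17433837 to 24731851 pairs each, the spread between control replicates limits these comparisons.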

Other observations

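In each of the 15 alternatives, 11 of the higher and 166 of the lower genes passed in the same direction. The 11 higher genes were Nmnat2, Vsig8, Tgm3, Wdr31, Hmgn2, Vgll4, Gm44335, Odc1, Fbp1, Gm8666 and Ammecr1. Vsig8 and Tgm3 are made in the hair shaft, and Odc1, ornithine decarboxylase, makes polyamines for dividing cells. None of the hair keratins was among them. On the lower side were 7 macrophage markers (Cd68, Fcer1g, Lyz2, Ctss, Ms4a7, Fcgr1 and Cd14), 5 collagens, 4 genes of collagen processing (Loxl2, Loxl3, P4ha3 and Adamts2), and the neutrophil-attracting chemokines Cxcl1 and Cxcl2. These genes were chosen after their values were seen.

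The weighted mean that described hydrogel replicate 2 was fitted for every library of the 6 wound groups. Its median chi-square per gene, against 0.455 from counting error, was 0.566 for hydrogel replicate 2 of day 14, and 9.07% of its 15375 genes lay beyond the limit that counting error passes in 5% of genes. For the other day 14 libraries it was 2.57 and 2.05 in hydrogel replicates 1 and 3, and 37.1, 9.27 and 10.5 in control replicates 1, 2 and 3. At day 7, where replicates of a group were close to each other in any case, it was 0.642 to 1.71, and at day 1 it was 7.61 to 31.6.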
